A study of Mus musculus with 6 samples.

Results

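The genes described here encode the proteins of the cytosolic ribosome. They are the rows of the deposited gene table that carry the KEGG ribosome entry and a symbol starting with Rps (small subunit) or Rpl (large subunit), with at least 10 counts summed over the 6 libraries. Of 57180 rows, 99 met the identifier and symbol part of this rule and 90 also met the count minimum. The libraries were made from NK cells (CD3- NK1.1+) that were sorted by CD36, a scavenger receptor that takes up fatty acids, into CD36+ NK and CD36- NK cells. The cells came from the livers of male wild-type C57BL/6J mice, 6 to 8 weeks old, with fibrosis caused by carbon tetrachloride (CCl4), given at 2.5 ml/kg of a 20% solution in 2 injections a week for 4 weeks and ended 48 h before the livers were taken. All animals of both groups received CCl4, so the groups differ only by the sort, and each has 3 libraries that the series calls biological triplicates.

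Each ribosome holds 1 copy of most of these proteins, and their mRNAs are among the most abundant of a cell. Most of these mRNAs begin with a C followed by a run of pyrimidines, the 5′ TOP motif, through which mTOR signalling controls their translation. Their genes are also known for the many retrotransposed copies, processed pseudogenes, that are scattered over mammalian genomes, and such a copy can be identical in sequence to the spliced mRNA of its parent.

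Sequences that show this identity are given first, because they bear on every value below. Rps6 encodes the small-subunit protein that S6 kinases phosphorylate. Its gene lies at chr4:86854660-86857412 (minus strand) and its pseudogene Rps6-ps4 at chr2:75191073-75191822 (minus strand) in the GENCODE M21 annotation of build GRCm38. Over the 750 coding bases of Rps6 the copy differed at 0 bases, and coding bases 1 to 60 of both read:
Rps6: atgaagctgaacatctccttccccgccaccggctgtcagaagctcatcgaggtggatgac
Rps6-ps4: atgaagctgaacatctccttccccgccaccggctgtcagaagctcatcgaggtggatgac
Rps27, of the small subunit (chr3:90212522-90213651, minus strand), and its retrotransposed copy Rps27rt (chr9:114982366-114982739, minus strand), which met the rule in its own right, differed at 0 of 255 coding bases.
Rps27: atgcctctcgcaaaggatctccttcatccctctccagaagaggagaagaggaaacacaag
Rps27rt: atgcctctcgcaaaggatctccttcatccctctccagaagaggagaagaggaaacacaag
Rps19, the small-subunit gene mutated in Diamond-Blackfan anaemia (chr7:24884371-24889806, plus strand), and Rps19-ps6 (chr12:110898114-110898551, plus strand) differed at 5 of 438 coding bases, and coding bases 331 to 390 hold 3 of these, in capitals.
Rps19: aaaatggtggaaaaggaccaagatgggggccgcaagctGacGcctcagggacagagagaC
Rps19-ps6: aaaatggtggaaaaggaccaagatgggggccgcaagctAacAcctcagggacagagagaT
A read that lies within the coding part of Rps6 or Rps27 cannot be assigned by its sequence to the gene or to the copy, whereas some reads of Rps19 can.

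The same held for much of the gene group. For 83 of the 90 rows a coding transcript was found in GENCODE M21, and its coding sequence was cut into all overlapping stretches of 50 bases. A median of 91.6% of these stretches also occurred in a transcript of another gene. For 29 genes every stretch did, and for 3 none did. For 25 genes at least 1 other gene outside the locus held 90% or more of the stretches.

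The counts in the table were split between many of the genes and such rows, but not in every case. Gm10275 holds every coding stretch of Rpl12, yet it had 12 counts against 4137 on the row of Rpl12. Each gene was set beside its copies, taken as the rows named as its pseudogenes (321 rows, 4 of which are themselves among the 90) and 15 further rows that hold 90% or more of its coding stretches, Rps27rt among them. Of the 85 genes treated in this way, 59 had a copy with counts, and over all 85 genes 60.7% of the counts were on the gene's own row. Under 50% of the counts were on the own row for 31 genes, and under 10% for 15.

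Rps6 had 1057 counts over the 6 libraries, against 61797 on Rps6-ps4, so that 1.61% of the counts of the gene and its copies were on its own row. Rpl23a held 1.23% of its counts and Rps23 1.63%. Rpl9 held 2.38%, with 29879 counts on Rpl9-ps6, a copy that differs from its coding sequence at 1 of 579 bases. Rpl28 held 3.44%, with 21214 counts on Rpl28-ps1, which differs at 0 of 414 bases. Rps27 had 757 counts against 22083 on Rps27rt.

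For some genes the main copy has no ribosomal protein name. Rpl5, whose protein binds 5S rRNA and, outside the ribosome, Mdm2, held 5.35% of its counts, and 82224 counts were on the row Gm15500. Rpl13 held 2.58%, with 85057 counts on Gm15710, and Rps29 held 3.72%, with 7264 counts on Gm14303. The own row of such a gene therefore holds a small part of the counts on rows with its coding sequence, and whether the counts on the copies came from the gene's mRNA was not tested. Over the 6 libraries the share on the own row ran from 1.36% to 1.86% for Rps6, from 5.07% to 5.76% for Rpl5, from 2.53% to 5.40% for Rpl28 and from 2.41% to 4.76% for Rps29.

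**Figure D1:**
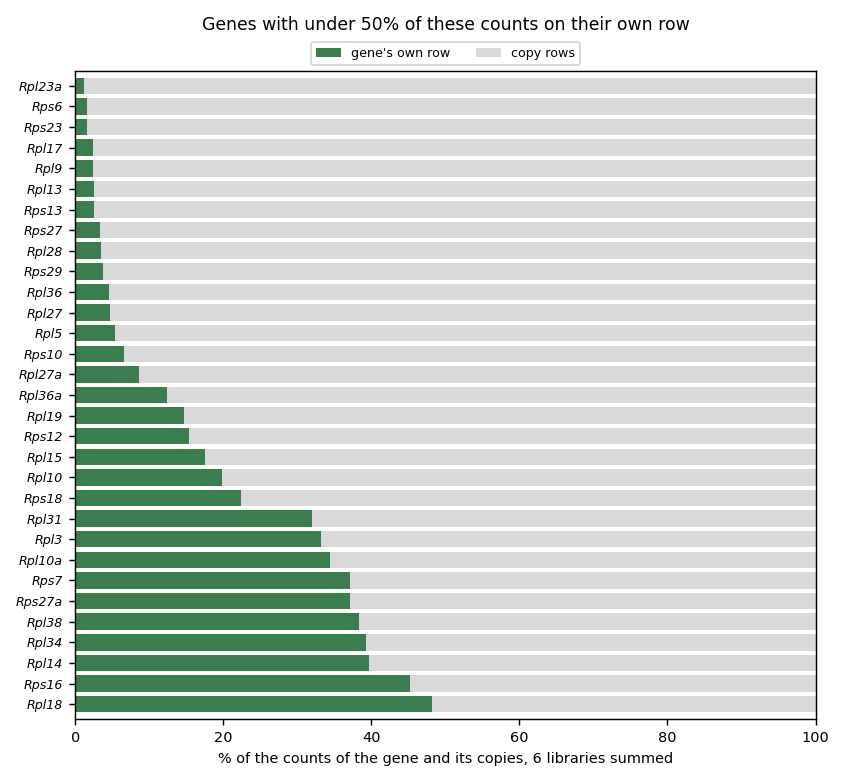
Share of the counts of each gene and its copies that lie on the gene's own row (green) and on copy rows (grey), in percent of the 6 libraries summed, for the 31 genes with under 50% on their own row. Rpl23a stands lowest at 1.23%, and 15 genes are under 10%.

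The mean share of the counts on ribosomal protein genes was larger in CD36+ NK, by less than the SD over the 3 libraries of either group, but replicate 1 of both groups gave most of that spread. The 6 libraries held between 10292480 and 13787189 counts. The 90 rows held 3.22%, 2.90% and 2.82% of them in CD36+ NK replicates 1 to 3 and 3.10%, 2.69% and 2.61% in CD36- NK replicates 1 to 3. The means were 2.98% ± 0.211 (SD, n = 3) and 2.80% ± 0.262 (SD, n = 3), and the groups overlapped. Replicate 1 was the highest library of both groups, and its library names have another form than those of the other replicates. Within each form of the name the CD36+ NK values lay above the CD36- NK values, 3.22% against 3.10% for replicate 1, and 2.90% and 2.82% against 2.69% and 2.61% for the others. The difference of 0.178 percentage points had an SE of 0.194 over the 6 libraries (exact permutation test, two-sided p = 0.40) and one of 0.0442 with the form of the library name as a block. Permuting the groups within each form gave a two-sided exact p of 0.167, the smallest that these libraries allow. The block was added after the shares had been seen. With the counts of the copies added, the shares were 5.27%, 4.71% and 4.58% in CD36+ NK and 5.06%, 4.40% and 4.26% in CD36- NK, in the same order. Small-subunit genes took 1.47% ± 0.118 in CD36+ NK and 1.36% ± 0.140 in CD36- NK (SD, n = 3 each), and large-subunit and stalk genes 1.51% ± 0.0944 and 1.44% ± 0.123 (SD, n = 3 each).

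**Figure D2:**
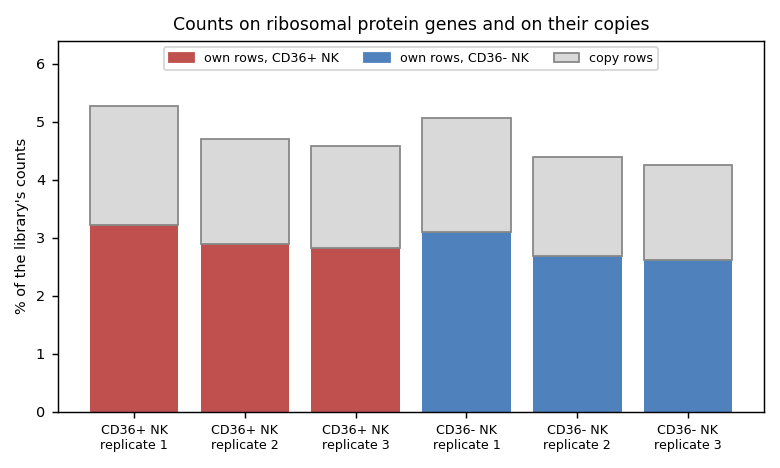
Percent of each library's counts on the rows of ribosomal protein genes (red, CD36+ NK; blue, CD36- NK) and on the rows of their copies (grey, stacked on top). Replicate 1 of each group stands above the other two, and the ranges of the groups overlap through replicate 1 of CD36- NK.

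No single ribosomal protein gene passed the test between CD36+ NK and CD36- NK cells in the fit without a block. Genes with enough counts (86 of the 90) entered the quasi-likelihood test of edgeR together with all other genes, and p-values were adjusted by Benjamini-Hochberg over all 14761 genes tested. At an adjusted p below 0.05, 0 of the 86 were called, whereas 10.5% of all tested genes were called, 5.07% as higher in CD36+ NK and 5.44% as lower. Calls of more than 2-fold, made for 5.96% of all genes, were also 0 here. By DESeq2, 1 of the 86, Rps20, had an adjusted p below 0.05, against 15.7% of all genes. With the form of the library name (replicate 1 of both groups against the others) as a block, edgeR called Rps20 and Rps19 (adjusted p = 0.0348 and 0.0337), against 11.7% of all genes. An unadjusted p below 0.05 was found for 5 of the 86, against 26.3% of all genes. This count was 2 without CD36+ NK replicate 1 (26.7% of all genes), 16 without CD36- NK replicate 1 (24.0%), and 15 with that block (29.0%). The 4 rows with too few counts for the test were Rpl3l, Rpl39l, Rpl13-ps6 and Rps12-ps10.

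The log2 fold changes (CD36+ NK over CD36- NK) ran from -0.34 for Rps27 to 0.51 for Rps12-ps24, with 69 above 0 and 17 below, and their median was 0.11 beside 0.01 over all genes tested. The split of signs depended on the setting: 55 of 86 lay above 0 with the length trend removed, 62 of 86 with library totals, 60 of 87 without CD36+ NK replicate 1 and 59 of 87 without CD36- NK replicate 2. In the other direction, 76 of 86 lay above 0 without CD36+ NK replicate 3 and 76 of 86 without CD36- NK replicate 1. Without replicate 1 of both groups 75 of 87 did. Small-subunit rows had a median of 0.14 (35 tested) and large-subunit rows one of 0.10 (48 tested). When the libraries were scaled by the summed counts of the 90 rows, which sets the group as a whole to no change, the median was -0.01 with 38 above 0. With this scaling 0 of the 86 were called by edgeR (3 at an unadjusted p below 0.05), against 1136 of all 14761 genes. The log2 values of the 86 ran from -0.46 to 0.37.

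The measurements were precise enough to bound these differences. The median standard error was 0.12 on the log2 scale, against 0.17 over all genes. The 95% interval lay within 2-fold for 85 of the 86, the exception being Rps12-ps24, which had 93 counts over the 6 libraries, and within 1.5-fold for 70. The values of the CD36+ NK libraries lay above all CD36- NK values for 14 of the 86, where 17.0% of all genes did so, and below all of them for 1, Rpl9, where 15.7% of all genes did so.

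**Figure D3:**
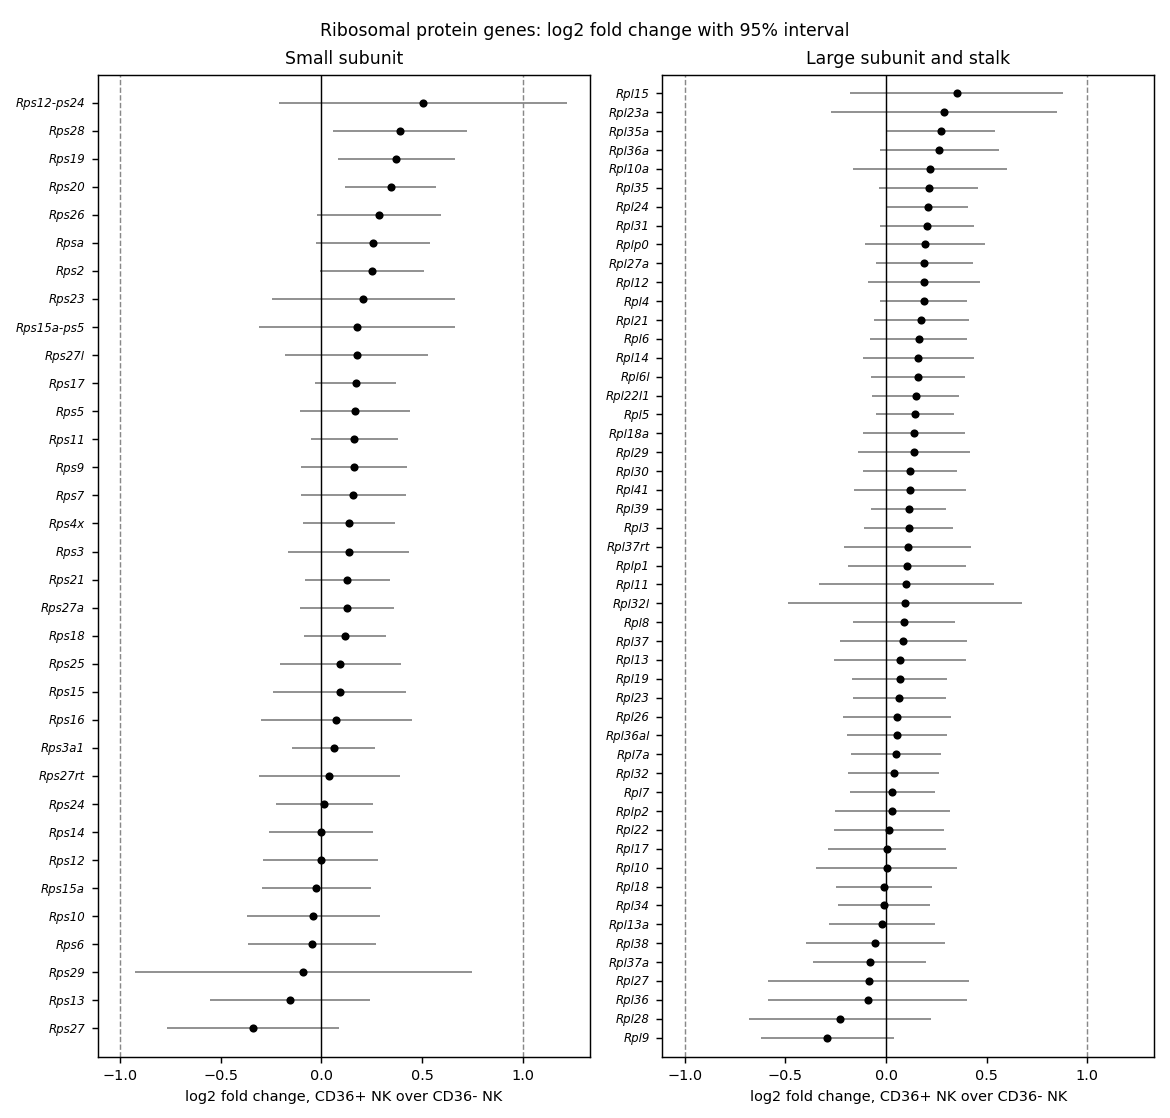
Log2 fold change of CD36+ NK over CD36- NK for the tested rows named here (points) with 95% intervals (lines), small subunit on the left, large subunit and stalk on the right, and dashed lines at 2-fold. The interval of Rps12-ps24 alone reaches past a dashed line.

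Among the genes above 0, Rps20, Rps19, Rps28 and Rpl24 were of those with the lowest p-values, the first 3 of the small subunit. Coordinates in this paragraph and the next are those of the deposited table, whose build is not named there. Rps20 (ENSMUSG00000028234, chr4:3831334-3835665), a protein of the head of the small subunit, had 486, 462 and 444 CPM (counts scaled to library size with TMM factors) in CD36+ NK and 398, 348 and 351 in CD36- NK. Every CD36+ NK library was above every CD36- NK library, and the log2 fold change was 0.34 (SE 0.10, adjusted p = 0.0649, edgeR). No copy of Rps20 was found by either rule for copies, although 84.9% of its coding stretches of 50 bases occur in transcripts of other genes.

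Rps19 (ENSMUSG00000040952, chr7:24583796-24589231), needed for the maturation of 18S rRNA, had 585, 532 and 513 CPM in CD36+ NK and 486, 392 and 381 CPM in CD36- NK. The groups did not overlap, and the log2 fold change was 0.37 (SE 0.12, adjusted p = 0.103, edgeR; 0.0337 with the form of the library name as a block). Its copy Rps19-ps6 had 177, 169 and 152 CPM in CD36+ NK and 121, 128 and 112 CPM in CD36- NK. It was the 1 pseudogene row that was called, at a log2 fold change of 0.46 (SE 0.10, adjusted p = 0.0299, edgeR). Rps19 and its copies summed gave 0.39 (SE 0.11, adjusted p = 0.0732, edgeR), so the copy passed the threshold and the sum did not.

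Rps28 and Rpl24 code for structural proteins of their subunits. Rps28 had 62.9, 58.5 and 52.6 CPM in CD36+ NK and 36.3, 50.3 and 46.3 CPM in CD36- NK (log2 fold change 0.39, SE 0.14). Rpl24 had 308, 301 and 317 CPM in CD36+ NK and 279, 269 and 253 CPM in CD36- NK (0.21, SE 0.09). Neither overlapped between the groups, and their adjusted p-values by edgeR were 0.132 and 0.176. With the counts of its copies added, Rps28 had 0.29 (SE 0.13, adjusted p = 0.199, edgeR).

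The 5 lowest p-values below 0 belonged to Rpl9, Rps27, Rpl28, Rps13 and Rpl37a. The first 4 of these were genes with under 10% of their counts on their own row. Rpl9 (ENSMUSG00000047215, chr5:65545707-65548787) had 15.4, 14.8 and 14.5 CPM in CD36+ NK and 18.6, 15.6 and 20.6 CPM in CD36- NK, without overlap (log2 fold change -0.29, SE 0.14, adjusted p = 0.244, edgeR). Rps27 had 8.99, 10.7 and 8.23 CPM in CD36+ NK and 12.6, 13.0 and 9.77 CPM in CD36- NK, and the groups overlapped (-0.34, SE 0.18, adjusted p = 0.295, edgeR). For Rpl28, Rps13 and Rpl37a the log2 fold changes were -0.23, -0.16 and -0.08, with overlap in each.

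**Figure D4:**
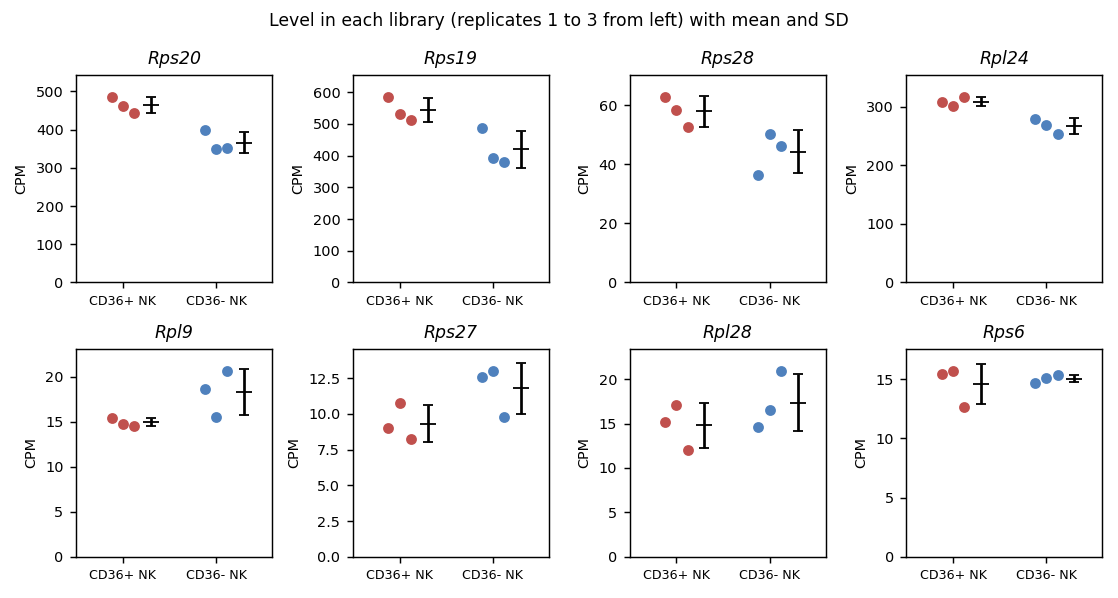
Level in CPM of 8 genes in each library (red, CD36+ NK; blue, CD36- NK; replicates 1 to 3 from left) with the mean and SD of each group in black. Rps20, Rps19, Rps28 and Rpl24 do not overlap between the groups, Rpl9 lies lower in CD36+ NK, and Rps27, Rpl28 and Rps6 overlap.

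Adding the counts of the copies to each gene drew the values together from below. This fit was chosen after the values had been seen. Over 83 genes tested as sums, the log2 fold changes ran from -0.09 to 0.39 with a median of 0.12, and 75 were above 0. At an adjusted p below 0.05, 0 were called, against 1578 of all 14652 rows tested in that fit (edgeR). At an unadjusted p below 0.05 there were 5, and no other tool was run on the sums. The 95% interval lay within 1.5-fold for 81 of the 83. The sign changed for 9 genes, all from below to above 0: Rps6, Rpl9, Rps13, Rps27, Rpl28, Rps29, Rps10, Rps12 and Rpl18.

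The size of the move differed between genes. Among the 15 genes with under 10% on their own row, the own-row values ran from -0.34 to 0.29, with 9 below 0, and the sums from -0.04 to 0.22, with 2 below 0. Their median standard error was 0.17 for own rows and 0.11 for sums. Among the 31 genes with 10% to 90%, the largest move was 0.19, for Rps12 from -0.00 to 0.19, and Rps28, with 67.2% on its own row, moved from 0.39 to 0.29. Among the 37 genes with 90% or more on their own row, no value moved by more than 0.00690, as follows from that share. The share counts only copies found by either rule. No copy of Rpl11 or Rpl24 was found, although 100% and 99.3% of their coding stretches occur in transcripts of other genes. Rpl28 moved most, from -0.23 to 0.22, as its sum had 522, 490 and 477 CPM in CD36+ NK and 467, 424 and 387 CPM in CD36- NK, a gap without overlap (SE 0.10, adjusted p = 0.231, edgeR). Rps27 with Rps27rt and its pseudogene moved to 0.03 (SE 0.15), with 372, 316 and 277 CPM in CD36+ NK and 365, 295 and 287 CPM in CD36- NK. Rps6 with its copies had 1020, 909 and 932 CPM in CD36+ NK and 976, 836 and 823 CPM in CD36- NK, where the own row had 15.4, 15.7 and 12.6 CPM and 14.7, 15.1 and 15.3 CPM. Rpl23a went the other way, from 0.29 to 0.00.

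**Figure D5:**
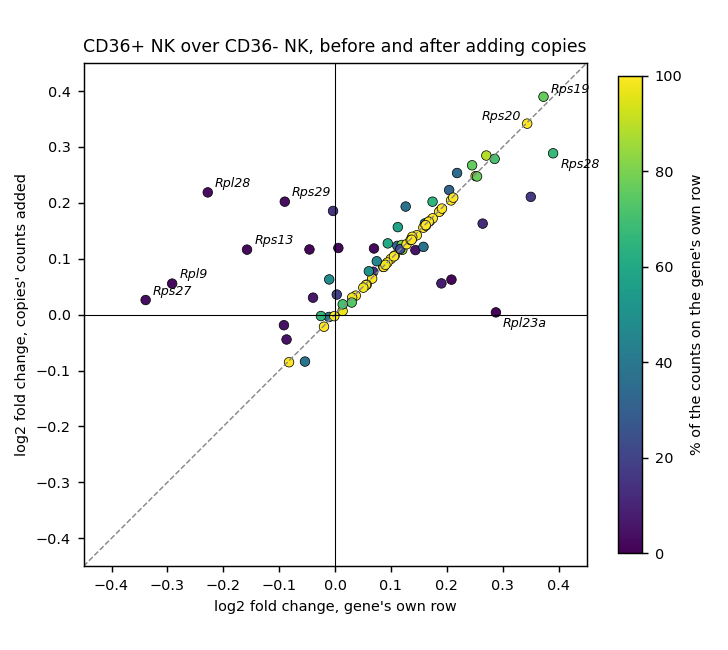
Log2 fold change of each gene's own row (horizontal) against that of the gene with its copies added (vertical) for 83 genes, coloured by the percent of counts on the own row, with the diagonal dashed. Rpl28, Rpl9 and Rps27, with few of their counts on the own row (dark), lie off the diagonal, and the lowest value after adding copies is -0.09.

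The proteins of the P stalk, the flexible arm of the large subunit that recruits the translational GTPases, did not pass the test of edgeR without a block. Rplp0 had 1426, 1210 and 1293 CPM in CD36+ NK and 1327, 1067 and 1048 CPM in CD36- NK (log2 fold change 0.19, SE 0.13). The log2 fold changes of Rplp1 and Rplp2 were 0.11 (SE 0.12) and 0.03 (SE 0.12), and all 3 overlapped between the groups. Rplp2 turned to below 0 when a trend on gene length was removed or library totals were used, and Rplp1 and Rplp2 did so when the libraries were scaled by the summed ribosomal protein counts.

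Genes of proteins with known roles outside the ribosome were not called by edgeR without a block, and of these Rps19, described above, was called with the form of the library name as a block. Rpsa, also known as the laminin receptor, had 1503, 1372 and 1596 CPM in CD36+ NK and 1427, 1176 and 1146 CPM in CD36- NK, with overlap (log2 fold change 0.25, SE 0.12, adjusted p = 0.237, edgeR). Rps3, which has a part in DNA repair, had a log2 fold change of 0.14 (SE 0.13), and Rps27a, made as a fusion with ubiquitin, one of 0.13 (SE 0.10). Rpl5 and Rpl11, which with 5S rRNA bind Mdm2, had 0.14 (SE 0.08) and 0.10 (SE 0.18). With copies added, Rpl5 had 0.12 (SE 0.09).

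Levels of different genes were compared as CPM per kilobase of the GENCODE M21 coding transcript, with copies added. The median over 82 genes was 639 CPM per kilobase, with quartiles at 313 and 1062. Rpl13, Rps15, Rpl13a, Rplp1 and Rps10 stood highest at 1818, 1672, 1617, 1578 and 1510 CPM per kilobase. In the deposited FPKM, which divide each row's counts by a length recovered here from counts and FPKM, Rplp1, Rps15, Rps27rt, Rps3a1 and Rpl4 stood highest. For 39 of the 90 rows that length exceeded the span of the locus, as it did for 5.97% of the 27171 genes with a length, and levels were not compared between genes by FPKM beyond naming these 5. Rps15 had 936, 815 and 781 CPM in CD36+ NK and 944, 731 and 704 CPM in CD36- NK, with overlap (log2 fold change 0.09, SE 0.14). Rpl4, of which every CD36+ NK value lay above every CD36- NK value, had 0.19 (SE 0.09), and Rps3a1 0.06 (SE 0.09).

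Of the paralogues that can replace a canonical ribosomal protein, those of Rpl3, Rpl39 and Rpl10 were near absent. Rpl3l, the form of striated muscle, had 22 counts over the 6 libraries against 32337 of Rpl3. Rpl39l, known from testis, had 11 against 4635 of Rpl39, and Rpl10l, also of testis, had none, which allows up to 3 counts in a library for counting error alone. Paralogues of Rps27, Rpl22 and Rpl36a were expressed. Per kilobase and with copies added, Rps27l stood at 54.9 CPM against 924 for Rps27, Rpl22l1 at 180 against 454 for Rpl22, and Rpl36al at 109 against 448 for Rpl36a. No copy of Rps27l, Rpl22l1 or Rpl36al was found by either rule, so copies were added to the partners alone. Of the coding stretches of these paralogues, 49.0%, 81.9% and 100% occur in transcripts of other genes, whose counts were not added to them. Rpl22l1 had 95.9, 111 and 107 CPM in CD36+ NK and 89.1, 97.1 and 97.6 CPM in CD36- NK, with overlap. The log2 fold changes were 0.15 for Rpl22l1 (SE 0.09), 0.01 for Rpl22 (SE 0.12), 0.17 for Rps27l (SE 0.15), 0.04 for Rps27rt (SE 0.15), 0.06 for Rpl36al (SE 0.11) and 0.26 for Rpl36a (SE 0.13). The differences between paralogue and partner were not tested. Rps4l and Rpl7l1 carry no KEGG ribosome entry and had log2 fold changes of -0.33 (SE 0.19) and 0.13 (SE 0.13), beside 0.14 for Rps4x (SE 0.10) and 0.03 for Rpl7 (SE 0.09).

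Windows around the annotated start sites were read for the run of pyrimidines named above. RefSeq windows of build GRCm38.p6 were found for 65 of the 90, 77 windows in all. A run of a C followed by C or T letters, at least 6 long and starting within 5 bases of the annotated start, was in 37.7% of the 77 windows and in 10.2% of all 32851 windows. The run is shown in capitals in the 30 bases around the start of a few genes with a long run or with most counts on copies: Rpl15 (chr14:18270972-18271001, minus strand), Rps10 (chr17:27635230-27635259, minus strand), Rpl28 (chr7:4792950-4792979, plus strand) and Rps6 (chr4:86857353-86857382, minus strand).
Rpl15: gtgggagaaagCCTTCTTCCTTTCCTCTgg
Rps10: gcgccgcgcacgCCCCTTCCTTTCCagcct
Rpl28: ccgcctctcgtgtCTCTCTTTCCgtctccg
Rps6: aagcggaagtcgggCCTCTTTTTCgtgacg
For Rps19, Rps28 and Rpl24, among the genes of lowest p, no such run started within 5 bases of an annotated start. Runs that start further away were not counted, as for Rpl4 and Rpl13. Some genes have several windows, so the 37.7% is a share of windows and not of genes. On either strand of the windows of 300 bases, the letters CCGGAAG, an ETS-type motif, were in 35.1% against 8.86% of all windows. CACGTG, the E-box bound by Myc, was in 10.4% against 7.15%, and TATAAA, the TATA box, in 10.4% against 13.6%. These are matches of letters and not measured binding.

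Other genes that make or serve the ribosome were tested in the same fit, with calls at an adjusted p below 0.05, made for 10.5% of all genes by edgeR and for 15.7% by DESeq2. Fau, which encodes a small-subunit protein, and Rack1, a scaffold on the small subunit, were left out by the rule. Their log2 fold changes were 0.06 (SE 0.16) and 0.22 (SE 0.10), and neither was called by edgeR or DESeq2. Of 39 ribosome biogenesis genes, 1 was called (3 by DESeq2), Polr1a, the largest subunit of RNA polymerase I. It rose by 0.43 on the log2 scale (SE 0.08, adjusted p = 0.0188, edgeR), from 58.9 ± 2.16 CPM in CD36- NK to 79.3 ± 1.03 CPM in CD36+ NK (SD, n = 3 each). The median over these 39 genes was 0.14, and 31 lay above 0. Tsr1, a maturation factor of the small subunit, had 0.36 (SE 0.10, adjusted p = 0.0557, edgeR), and the lowest p below 0 belonged to Ubtf (-0.15) and Bop1 (-0.08).

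Mitochondrial ribosomal proteins, which are built into a different ribosome, had a median of 0.02 over 81 genes. Of these 1 was called (3 by DESeq2), Mrpl9, which fell by 0.46 on the log2 scale (SE 0.10, adjusted p = 0.0311, edgeR). Mrpl58 had -0.56, Mrpl2 0.47 and Mrps18b 0.45, none of them called.

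Of 11 elongation and release factors tested, Eef2k alone was called. It encodes the kinase that inhibits elongation factor 2, and it fell by 0.89 on the log2 scale (SE 0.12, adjusted p = 0.00677, edgeR), from 73.1 ± 7.25 CPM in CD36- NK to 39.6 ± 4.24 CPM in CD36+ NK (SD, n = 3 each). Eef1g (0.23), Eef1b2 (0.30) and Eef1d (-0.17) were not called. Of 35 initiation factors 0 were called by edgeR or DESeq2, with 1 at an unadjusted p below 0.05, Eif4g3 (0.23), and a median of 0.04. Eif1ax had 0.17, Eif3j1 -0.18 and Eif6 -0.15.

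Of 20 other mRNAs of the 5′ TOP kind, 1 was called, Vim, which encodes vimentin. It fell by 0.65 on the log2 scale (SE 0.16, adjusted p = 0.0470, edgeR), and the median was 0.03, with 0.27 for Npm1. Of 7 host genes of small nucleolar RNAs of the same kind, 0 were called by edgeR or DESeq2 (0 at an unadjusted p below 0.05), with a median of -0.12, 0.12 for Gas5 and Zfas1, -0.56 for Snhg5 and -0.34 for Snhg8. Of 14 genes that control ribosomal protein synthesis and turnover, 0 were called by edgeR and 1 by DESeq2, and 3 had an unadjusted p below 0.05. Eif4ebp1, a translation repressor that mTOR inactivates, had 0.56 (SE 0.20), Myc 0.50 (SE 0.22), Rptor, the mTORC1 scaffold, -0.37 (SE 0.10) and Zfp598, a sensor of collided ribosomes, -0.29 (SE 0.09). Of 145 pseudogene rows with at least 10 counts, 96 were tested, with a median of 0.16, 84 above 0 and Rps19-ps6 as the 1 called. Rpsa-ps7 had 0.41, Rpl9-ps1 -1.26 and Rpl10-ps6 -0.66.

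The groups differed in the markers of several cell types. For comparison with the calls below, 5.07% of all genes tested were called as higher in CD36+ NK and 5.44% as lower (edgeR). Cd36 had 110, 263 and 238 CPM in CD36+ NK and 14.3, 31.7 and 17.1 CPM in CD36- NK, in the order of the sample titles, although the names of the sequencing libraries write the sign of CD36 otherwise. All 12 NK lineage markers were called as lower in CD36+ NK, with a summed level of 1220 to 1494 CPM against 6373 to 8305 CPM. Of 12 macrophage and Kupffer cell markers 5 of 10 tested were called as higher (6788 to 9266 CPM against 2487 to 5823 CPM), and of 8 B cell markers 6 were (11766 to 13412 CPM against 7153 to 9308 CPM). Of 8 erythroid markers 5 were called as higher (351 to 794 CPM against 76.9 to 171 CPM). Of 7 T cell markers 2 were called as higher, as were 2 of 7 dendritic cell markers, 1 of 5 plasma cell markers and 1 of 3 tested sinusoidal endothelial markers, while of 5 monocyte markers 1 was called as higher and 1 as lower. CD36+ NK replicate 1 stood apart in T cell markers (301 CPM, with 25.6 to 45.3 CPM in the other libraries) and was the highest in neutrophil markers (2105 CPM, with 302 and 371 CPM in the other CD36+ NK libraries and 676 to 1695 CPM in CD36- NK), of which 0 of 5 were called by edgeR (0 at an unadjusted p below 0.05). Without that library the median log2 fold change of the ribosomal protein genes was 0.08, with 0 called, against 1743 of all 15208 genes tested. The 4 hepatocyte markers were too low to be tested, at up to 11.4 CPM in sum. No marker on these lists was at 0 counts in all libraries. The 6 proliferation markers overlapped between the groups (380 to 511 CPM against 380 to 470 CPM). The part of these cell types in the values of the ribosomal protein genes was not tested, and in such bulk samples a change in the share of a cell type and a change in RNA per cell cannot be told apart.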

How the data were processed

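The authors filtered reads of poly(A)-selected RNA with Seqtk, mapped them with HISAT2 (2.0.4 in the submitters' processing notes) and obtained gene counts with StringTie. They deposited these counts without normalization beside FPKM. The treatment of reads that map to several places is not given in the sources used here, and it can set how counts divide between a gene and its copies. The processing notes name the rat build mRatBN7.2, whereas the table holds mouse Ensembl identifiers. FPKM values deposited by the authors were used to choose named rows and, with the counts, to recover the length of each row. The fit with the length trend removed rests on these lengths, which exceeded the span of the locus for 39 of the 90 rows. Members and lists were chosen with earlier results of these data known, although the rule for members reads no difference between the groups.

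Counts were analysed with edgeR 4.0.16 in R 4.3.3 (filterByExpr, minimum count 10, TMM, quasi-likelihood test without a block), after the study's use of TMM and edgeR. DESeq2 1.42.0 was an alternative. Standard errors are the log2 fold change over the square root of F. On simulated counts of 14761 genes with 200 changed, 192 were called, and 2 unchanged genes were. Whether differences as small as those of the ribosomal protein genes would be called was not tested. Coding sequences came from GENCODE M21 (GRCm38), 1 transcript per gene, and start windows from RefSeq. Named were the 5 lowest p-values in each direction, the 5 highest FPKM, paralogues with their partners, the stalk, members with roles outside the ribosome and, from each list, the 2 lowest p-values in each direction. Other genes were named after their values were seen, and some items that this rule names are not reported here. Intervals are at 95% and, like limits from counts, leave out errors of read assignment.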

Additional observations from a re-analysis of the deposited data

How the results depend on the processing

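In each of the 18 further fits, 0 of the ribosomal protein genes were called as lower in CD36+ NK, and 0 as higher except by DESeq2 (1, Rps20, adjusted p = 0.0149) and with the form of the library name as a block (2, Rps20 and Rps19, adjusted p = 0.0348 and 0.0337 by edgeR). The median log2 fold change stayed above 0 in all but the scaling by the members' own counts (-0.01). It was lowest with the length trend removed (0.05, beside -0.05 over all genes) and ran from 0.08 to 0.18 with 1 library left out and to 0.14 without replicate 1 of both groups. Scaling by library totals gave 0.08, and adding the copies, chosen after seeing the data, 0.12. Of 36 named genes tested, 18 had another sign in at least 1 fit, none of them with an adjusted p below 0.05. The difference in the share of counts was 0.178 percentage points with and without the form of the library name as a block, and 0.257 with the 50 most counted other genes left out of the total, both with overlap between the groups but not within a form of the library name.

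The titles give replicate numbers, but deviations of same-numbered samples correlated at 0.31, 0.05 and -0.08 over all genes, and at 0.12, 0.26 and 0.08 over the members, so the numbers were not taken as pairs. The library names number the CD36- NK samples otherwise, and no pairing by those numbers was run. With the replicate block 0 members were called in either direction, the median was 0.12, and the 1 call among mitochondrial ribosomal proteins was lost (0 called). Calls over all genes rose from 1552 to 1743 without CD36+ NK replicate 1 and to 1750 without CD36- NK replicate 2. They fell to 907 under this block, to 525 and 607 when replicate 2 or 3 of CD36+ NK was left out, and to 611 and 666 when replicate 1 or 3 of CD36- NK was. The cause was not tested. With 3 libraries per group, the interval of a member lay within 1.5-fold for 70 of 86, and a smaller difference can lie inside it unseen.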
